A study of Mus musculus with 3 samples.

Results

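Lung macrophages (Mϕ) were compared with lung dendritic cells (DC) over all 19087 genes that the array annotation names, the same genes that the whole series measured. All of them entered the comparison, whatever their value. The value of a gene is the deposited log2 ratio of lung Mϕ over lung DC, averaged over the probes of the gene, so that a positive ratio is higher in lung Mϕ and a ratio of 1 is a 2-fold difference. A gene is called higher or lower here when its ratio is past 2-fold.

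All cells came from untreated wild-type C57BL/6N mice of both sexes, 6 to 9 weeks old. In lung digests, CD11c+ cells were enriched with magnetic beads and sorted by flow cytometry into high autofluorescent cells, the lung Mϕ, and low autofluorescent cells, the lung DC. Peripheral blood monocytes (PBMo), sorted as CD11b+ CD115+ cells of low side scatter, were the third cell type. RNA of 4 mice was joined to a pool, amplified and labelled, and 8 pools per cell type from 32 mice were hybridized on 12 arrays, 4 of them per comparison and with the dyes balanced. Although labelled as alveolar, the macrophages were sorted from digests of the whole lung, which also holds interstitial macrophages.

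Alveolar macrophages lie on the airspace surface, take up inhaled particles and surfactant lipid, and depend on GM-CSF and the nuclear receptor PPARγ. Lung DC take up antigen below the epithelium, load peptides on MHC class II molecules, and carry them along CCR7 to the draining lymph node, where they prime T cells. Conventional DC fall into a type 1 lineage that depends on BATF3 and IRF8 and a type 2 lineage that depends on IRF4, and plasmacytoid DC are a separate source of type I interferon.

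The files used here give 1 ratio per spot and comparison, and subtracting the ratio of lung DC over PBMo from that of lung Mϕ over PBMo gave the main ratio to within 1.07e-14. No spread between pools could therefore be computed, no difference was tested, and all values are descriptions. The ratios against PBMo are given side by side with the main ratio and are not independent of it. The only repeats are probes of the same transcript, which share their RNA: over 217 transcripts with at least 8 probes, the SD between probes had a median of 0.057 and a maximum of 0.503. Probes of a gene differed more: of 507 genes past 2-fold with more than 1 probe, 199 had probes more than 1 log2 unit apart, and the median distance was 0.65. The probes listed for a transcript may be repeats of the same oligonucleotide, which could not be told apart here.

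In all, 523 genes (2.74%) were more than 2-fold higher and 863 (4.52%) more than 2-fold lower in lung Mϕ than in lung DC, 7.26% of all genes. Every count of list members below is to be read beside these shares. The median ratio of all genes was 0.003, with 5% of genes below -0.93 and 5% above 0.73, so the lower tail was the longer one. The lowest gene was at -5.25 and the highest at 3.25.

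**Figure D1:**
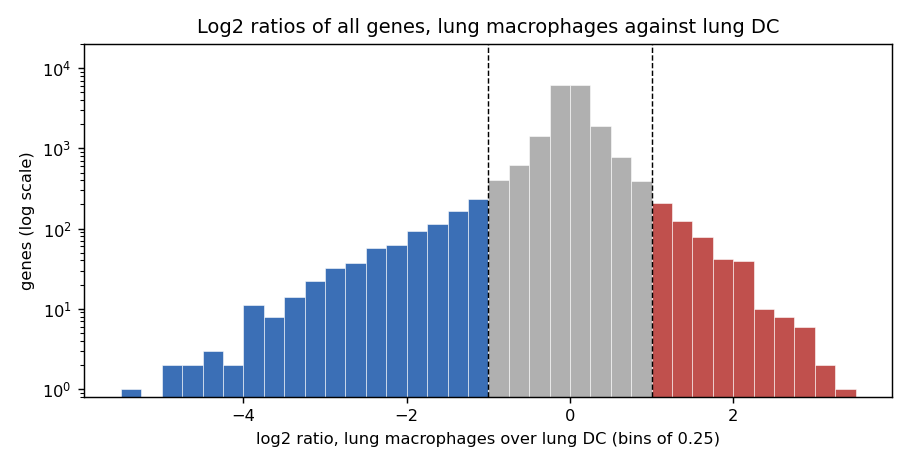
Number of genes (log scale) by log2 ratio of lung Mϕ over lung DC, in bins of 0.25. Red bins hold the 523 genes more than 2-fold higher in lung Mϕ, blue bins the 863 genes more than 2-fold lower, and the blue tail reaches -5.25 against 3.25 on the red side.

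Among the 15 highest genes were Perp, a membrane protein of desmosomes, at 3.0, Ccdc80, a secreted matrix protein, at 2.85, and Acot1, a cytosolic acyl-CoA thioesterase, at 2.79. Olr1, the receptor for oxidized LDL, was at 2.78. These 4 genes were also above PBMo in both lung populations, as in Perp, which stood at 6.43 in lung Mϕ and at 3.43 in lung DC. Ccl6, a CC chemokine of macrophages, had the same main ratio as Olr1 but differed from PBMo in lung Mϕ (2.79) and not in lung DC (0.01). The 10 probes of Afp, which encodes alpha-fetoprotein, gave ratios between 2.54 and 2.69.

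Among the 15 lowest genes, Tiam2, an exchange factor for the GTPase Rac, was at -4.47, and Plac8, a small protein of blood leukocytes, at -4.02. Both were lowest in lung Mϕ, where Plac8 was at -6.59 against PBMo, compared with -2.57 in lung DC. Eno3, the muscle form of enolase, was at -3.91 and nearly equal between lung DC and PBMo (-0.05). Serpinb6b, an inhibitor of serine proteases, was at -3.93, with lung DC instead above PBMo (3.25). A low ratio between the 2 lung populations thus arose in both ways.

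Markers of lymphocytes differed between the 2 populations as well. Of 25 NK cell markers, 22 were lower and 0 higher in lung Mϕ, with a list median of -3.09. The median of these markers against PBMo was 0.93 in lung DC and -1.90 in lung Mϕ. Gzma, which encodes granzyme A, had a ratio of -4.58 and stood at 1.08 over PBMo in lung DC. Of 23 T cell markers, 12 were lower and 1 was higher (Cd2, 1.40). Cd8b1 was at -4.75 and stood at 3.51 over PBMo in lung DC. Cd3d, a chain of the T cell receptor complex, was at -2.77 and Cd3g at -1.92. Thy1 was at -2.19, with 2 probes at -3.70 and -0.68. In contrast, Cd3e was at -0.35 and Cd4, over 11 probes, at -0.11. Of 19 B cell markers, 9 were lower and 0 higher, among them Cd79b (-2.89) and Ms4a1 (-1.43, with 2 probes at -1.99 and -0.88). Cd79a was instead at -0.14, Pax5 at -0.06 and Ebf1 at 0.05 (3 probes, the highest at 0.09 and the lowest just below 0). The median of the B cell markers against PBMo was -0.14 in lung DC and -0.67 in lung Mϕ. Without the genes on the lists of other cell types, 512 genes were higher and 787 lower. These lists are short and could not hold most genes past 2-fold, so this count does not measure the part of other cells. Klra23 (-4.33), which encodes a Ly49 receptor of NK cells, stands on none of the lists. The sorted cells were checked in the study by flow cytometry and stained cytospins and were nearly pure by both, and the lung DC lacked surface markers of lymphocytes. The part of other cells in the results for DC genes was not tested here, and in RNA pools of sorted cells more cells of a type cannot be told apart from more RNA per cell.

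Markers of further blood and lung cells were also read, beside 2.74% of all genes higher and 4.52% lower. Of 19 neutrophil markers 3 were higher, 2 of which (Chil3 and Wfdc21) are also genes of alveolar macrophages, and 1 was lower. The lower one was S100a9 (-2.14), whereas S100a8 was at 0.53 and Csf3r at -0.58. Elane and Mpo, which encode granule enzymes of neutrophil precursors, were at 0.07 and 0.02 (Mpo with 2 probes at -0.19 and 0.24). Of 13 markers of mast cells and basophils 3 were lower, and the protease genes Tpsb2, Cpa3 and Mcpt8 were between -0.02 and 0.14. Of 16 platelet and erythroid markers 3 were lower and 1 higher, and of 28 endothelial and fibroblast markers 3 were lower. Of 22 lung epithelial markers 2 were higher and 2 lower. Sftpc, which encodes surfactant protein C of alveolar type II cells, had a ratio of -0.48 but was above PBMo in both populations (3.16 in lung Mϕ and 3.65 in lung DC), as was Scgb1a1 of club cells (2.17 and 2.37). Both of these transcripts were thus above PBMo in both sorts. Of 14 reference genes 1 was higher and 1, B2m, lower. Actb was at 0.01 over 10 probes from -0.04 to 0.07, Gapdh at 0.21 and Ppia at 0.15, and Hprt was at 1.17 over 10 probes that ranged from 1.13 to 1.20.

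**Figure D2:**
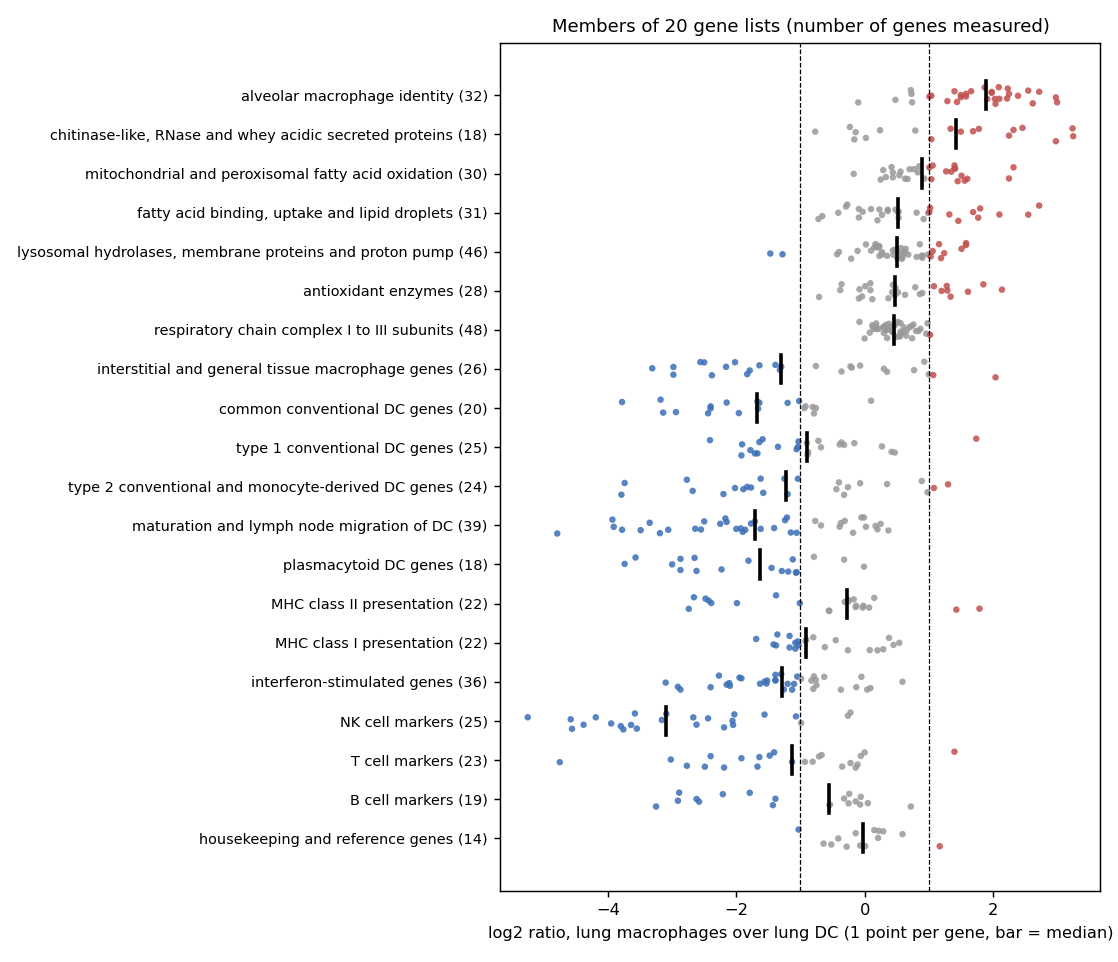
Log2 ratio of lung Mϕ over lung DC for each measured member of 20 gene lists (1 point per gene, bar at the median, number of genes in brackets). Points past the dashed lines at 1 and -1 differ by more than 2-fold. Alveolar macrophage genes centre at 1.89, fatty acid oxidation genes at 0.89, maturation genes at -1.71 and NK cell markers at -3.09.

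Genes that identify alveolar macrophages were the group most often higher in lung Mϕ. Of 32 measured members 27 were higher and 0 lower, beside 2.74% of all genes, and their median was 1.89. Fabp1, a fatty acid binding protein first known from liver, was at 2.72 (6.61-fold), and Cidec, a lipid droplet protein, was at 2.55. Siglecf, the sialic acid receptor used to gate alveolar macrophages, was at 2.23, and Marco, a scavenger receptor for unopsonized particles, was at 2.03. The membrane protein Plet1 was at 2.22 and the carbonic anhydrase Car4 at 1.87, and Krt79, an epithelial keratin, was at 1.58. The list was written with earlier results of these data known, so these counts do not test the label of the cells.

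These markers were not at the level of PBMo in lung DC. Fabp1 stood at 7.81 over PBMo in lung Mϕ and at 5.09 in lung DC. For Marco the ratios were 6.19 and 4.16, and for Siglecf they were 5.39 and 3.16. Over PBMo, the list had a median of 3.59 in lung Mϕ compared with 1.61 in lung DC. Apart from Csf2ra, which was level with PBMo in lung Mϕ, the members of the list were above PBMo in both lung populations. The 5 members within 2-fold were Pparg (0.74, with 10 probes from 0.69 to 0.78), Dst (0.73), Bhlhe41 (0.72) and the 2 GM-CSF receptor chains, Csf2rb (0.48) and Csf2ra (-0.10). Pparg and Bhlhe41, which encode transcription factors of alveolar macrophages, therefore had smaller ratios than most other members of the list.

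**Figure D3:**
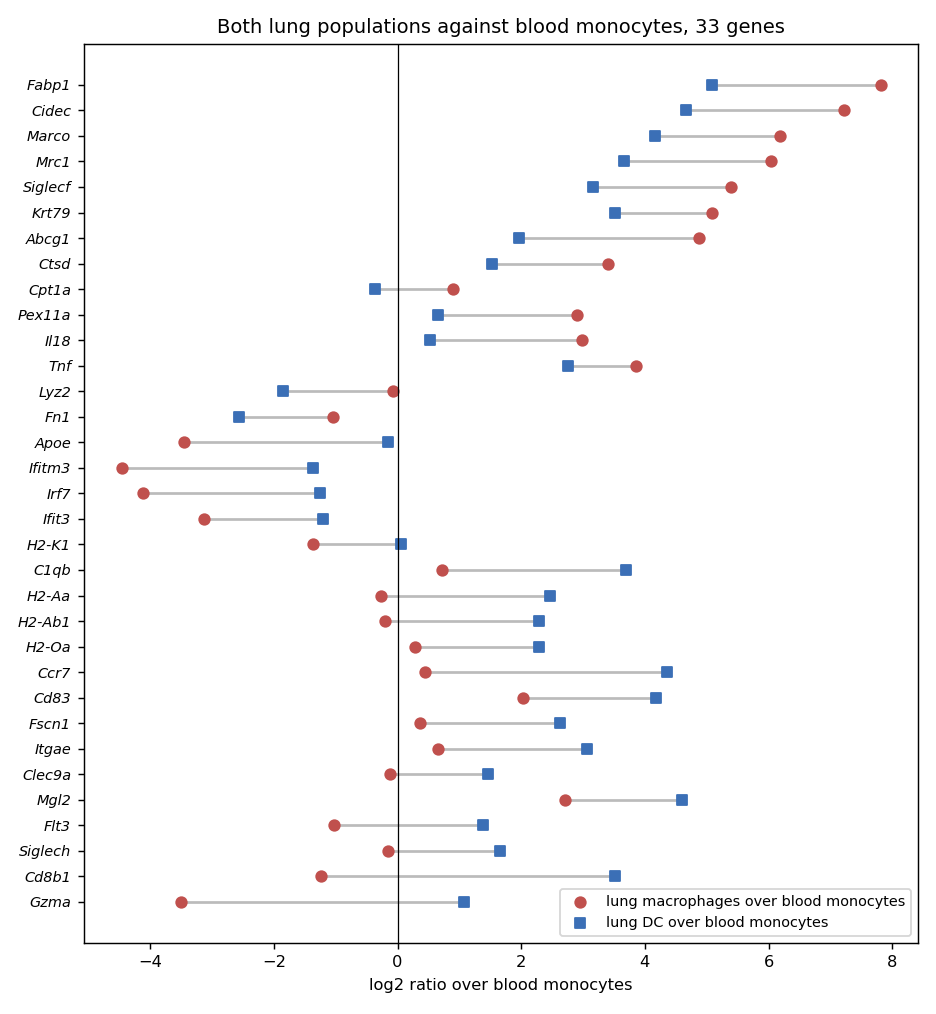
Log2 ratios over PBMo of lung Mϕ (circles) and lung DC (squares) for 33 genes, joined by a line whose length is the ratio between the lung populations. For Fabp1 both marks lie right of 0 (7.81 and 5.09), for Ifitm3 both lie left of it (-4.46 and -1.36), and for H2-Aa only the lung DC are above PBMo (2.47 against -0.27).

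Genes of interstitial macrophages and of tissue macrophages at large went mostly the other way. Of 26 members 14 were lower and 3 higher, with a median of -1.31. The 3 chains of complement C1q, the recognition protein of the classical pathway, were at -2.56 (C1qa), -2.98 (C1qb) and -2.98 (C1qc). C1qb stood at 3.70 over PBMo in lung DC and at 0.72 in lung Mϕ. Apoe, the apolipoprotein that macrophages secrete, was at -3.31 (9.93-fold higher in lung DC), and its 10 probes lay between -3.35 and -3.27. In Apoe the lung DC were near PBMo (-0.15) and the lung Mϕ were below both (-3.46). Adgre1, which encodes F4/80, was at 0.30, and Fcgr1, which encodes CD64, was at 0.35, so neither of these transcripts differed by 2-fold. At the protein level, the study's flow cytometry found F4/80 low on lung DC and positive on lung Mϕ. Mertk, a receptor kinase for apoptotic cells, was the member with the highest ratio (2.04).

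Secreted proteins of macrophages held the highest ratios of the comparison. Of 18 chitinase-like, ribonuclease, lysozyme, galectin and whey acidic proteins, 11 were higher and 0 lower, with a median of 1.42. Ear6 and Ear10, ribonucleases of the eosinophil-associated family, were at 2.46 and 2.25. Their sequences and those of Chil3 and Chil4 are alike, so a probe may read more than 1 member. Lyz1 and Lyz2, the lysozymes, were at 2.32 and 1.78, but here the lung Mϕ were at the level of PBMo (0.06 and -0.07) and the lung DC were below it (-2.26 and -1.85). Chil4, a chitinase-like protein, stood at 3.66 over PBMo in lung Mϕ and at 0.42 in lung DC. Retnla, a further secreted protein of lung macrophages, was at -0.14 and above PBMo in both populations (2.30 and 2.44).

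Chil3 and Chil4 are neighbours on chromosome 3, and their promoters are shown because the pair is so alike. The 300-base RefSeq windows around their starts (GRCm38.p6) were identical in 251 of 271 aligned bases (92.6%). The 150 bases before each annotated start, chr3:106167565-106167714 and chr3:106219480-106219629, are given on the minus strand with no part marked. The shared stretches are shifted between the lines, since the 2 starts were not annotated at the same place.
Chil3: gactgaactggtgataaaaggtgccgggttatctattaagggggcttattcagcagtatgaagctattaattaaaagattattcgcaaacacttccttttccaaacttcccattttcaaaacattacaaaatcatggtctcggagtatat
Chil4: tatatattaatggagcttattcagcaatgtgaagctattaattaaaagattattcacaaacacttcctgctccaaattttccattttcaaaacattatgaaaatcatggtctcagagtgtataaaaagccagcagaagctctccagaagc

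Some lipid genes were higher in lung Mϕ, and most lay within 2-fold. Of 31 genes of fatty acid binding, uptake and lipid droplets, 10 were higher and 0 lower, and the median was 0.52. Angptl4, an inhibitor of lipoprotein lipase, was at 1.80 and Plin2, the droplet coat protein, at 1.46. Lpl, the lipase itself, was at 2.10 with 2 probes at 1.41 and 2.79. Abhd5, which activates droplet lipolysis, was at 1.77. Cd36, the fatty acid transporter, was within 2-fold at 0.36.

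Of 30 genes of mitochondrial and peroxisomal fatty acid oxidation, 14 were higher and 0 lower, 29 were above 0, and the median was 0.89. Pdk4, the kinase that keeps pyruvate out of the citric acid cycle, was at 2.32 (4.99-fold). Pex11a, which divides peroxisomes, was at 2.25 with 10 probes from 2.21 to 2.30. The carnitine palmitoyltransferases, which bring acyl groups into mitochondria, were at 1.27 for Cpt1a (11 probes from 1.14 to 1.34) and at 1.56 for Cpt2. Cpt2 was near PBMo in lung DC (-0.02), and Cpt1a was below it there (-0.37). The peroxisomal enzymes Acaa1b (1.60), Ech1 (1.45) and Ehhadh (1.41) were of like size. The chain-length dehydrogenases Acadvl (0.77), Acadm (0.70) and Acadl (0.56) were within 2-fold. Small ratios of the same sign ran through the respiratory chain, where 46 of 48 subunits of complexes I to III were above 0, but only Ndufa4 passed 2-fold (1.02) and the median was 0.45.

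Of 27 genes of cholesterol export, storage and LXR target genes, 8 were higher and 3 lower. Abca1, which exports cholesterol to apolipoprotein A-I, was at 1.49 and Ch25h, the 25-hydroxylase, at 1.74. Nceh1, which hydrolyses cholesterol esters, was at 2.75. The 3 genes on the other side were Apoe, Apoc2 (-2.97) and Cyp27a1 (-1.52), so the exporters were higher and the apolipoproteins Apoe and Apoc2 lower, while Apoc1 was higher (1.60). Nr1h3, which encodes LXRα, was at 0.67. Of 20 genes of sterol synthesis, 0 passed 2-fold in either direction, and they ranged from -0.76 to 0.73. Among 20 glycolysis genes 2 were higher and 3 lower, with Aldoc (1.32) and Aldoa (1.22) on the high side. The glucose transporter Slc2a1 (-1.38) and the lactate transporter Slc16a3 (-1.48) were on the low side.

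Lysosomal genes were higher in part. Of 46 hydrolases, membrane proteins and proton pump subunits, 8 were higher, 2 lower and 40 above 0, with a median of 0.51. Atp6v0d2, a pump subunit of macrophages and osteoclasts, and Pla2g15, the lysosomal phospholipase A2, were both at 1.58. Mitf, a transcription factor of lysosomal genes, was at 1.51 with 11 probes from 0.68 to 1.66. Gm2a, the GM2 ganglioside activator, was lower (-1.47). The proteases differed among themselves: of 18 cathepsins and cystatins, 7 were higher and 4 lower. Ctsk (1.98), Ctsd (1.88) and Ctsl (1.79) were the highest, whereas Ctsw, a protease of cytotoxic lymphocytes, was at -3.58 and is also on the NK cell list. The inhibitors were split, with Cstb at 1.67, Cst3 at -1.72 and Cst7 at -2.75. Lgmn, the asparagine endopeptidase of antigen processing, was at -1.02.

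Of 23 genes of iron and heme handling, 6 were higher and 1 lower. Ncoa4, the receptor that delivers ferritin to lysosomes, was at 2.15, and the ferritin chains were at 1.24 (Fth1) and 1.18 (Ftl1). The exception was Slc11a1, the phagosomal metal transporter known as Nramp1, at -2.83. Slc11a1 was near PBMo in lung DC (-0.28) and below it in lung Mϕ (-3.11). Of 28 antioxidant genes 8 were higher and 0 lower, among them the glutathione transferases Mgst1 (2.14) and Gstm1 (1.85), and thioredoxin (Txn1, 1.61). Mgst1 was near PBMo in lung Mϕ (0.31) and below it in lung DC (-1.84). Of 8 genes of the phagocyte NADPH oxidase, 1 was higher and 3 lower. The membrane subunits Cybb (0.21) and Cyba (0.38) were within 2-fold. Among those lower were the cytosolic subunit Ncf4 (-1.26) and Rac2 (-1.04). The proton channel Hvcn1, which sustains the oxidase, was higher (1.71).

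Receptors for uptake and sensing were divided between the 2 populations. Of 19 scavenger receptors 4 were higher, led by Olr1, and 3 lower, led by Cxcl16 (-2.64), which is both a chemokine and a receptor for oxidized lipid. Of 29 C-type lectin receptors, 6 were higher and 7 lower. The mannose receptor Mrc1 (2.39), dectin-1 (Clec7a, 1.87) and dectin-2 (Clec4n, 1.85) were on the side of lung Mϕ. On the side of lung DC were Clec10a (-2.68), langerin (Cd207, -1.91), Mgl2 (-1.89), Clec9a (-1.59) and DC-SIGN (Cd209a, -1.20). Ly75, which encodes the DC antigen DEC-205, had the sign opposite to its name as a DC gene, at 1.74. Its 2 probes were at 1.27 and 2.21.

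Of 20 Toll-like receptors and partners 3 were higher and 3 lower. Tlr2, the receptor for bacterial lipopeptides, was at 1.51 over 10 probes that ranged from 1.48 to 1.54. Tlr4, the receptor for lipopolysaccharide, was at 1.58, but its 11 probes ran from -0.09 to 1.81. Tlr9, the receptor for unmethylated DNA, was lower (-1.30), as was Tlr1 (-2.04), the partner of Tlr2. Of 22 complement genes 4 were higher and 4 lower: C1ra (2.48) and factor B (Cfb, 1.88) were higher, and the 3 C1q chains and Itgam were lower. The enzyme that C1q activates thus had the opposite sign to C1q. Of 11 Fc receptors 0 were higher and 2 lower, with Fcgr4 at -1.28.

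Genes of apoptotic cell uptake lay on both sides. The receptor kinases Mertk (2.04) and Axl (1.91) and the bridging protein Pros1 (1.81) were higher. The bridging proteins Gas6 (-1.30) and Mfge8 (-1.65) and the phosphatidylserine receptor Timd4 (-1.39) were lower. In all, 5 of 24 members were higher and 5 lower. Of 22 genes of prostaglandins and leukotrienes 5 were higher and 4 lower. Alox5 (1.55) and Ltc4s (1.5), which make cysteinyl leukotrienes, were higher. Ptgs2, the inducible cyclooxygenase, was lower (-1.39, with 11 probes from -1.56 to -1.10), as was the prostaglandin dehydrogenase Hpgd (-2.39, with 3 probes from -3.41 to -1.31). Of 23 inhibitory and sialic acid receptors 5 were higher and 6 lower. Cd200r1 (1.66), Siglec1 (1.36) and Sirpa (1.08) were among the former and Siglecg (-1.70) among the latter. The 2 probes of Siglec1 were at 0.46 and 2.27.

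Genes of the DC lineages were lower in lung Mϕ, beside 4.52% of all genes. Of 20 genes common to conventional DC, 14 were lower and 0 higher, with a median of -1.67. Flt3, the receptor for the DC growth factor, was at -2.40 (5.29-fold higher in lung DC) and stood at 1.38 over PBMo in lung DC and at -1.02 in lung Mϕ. Dpp4, which encodes CD26, was at -1.96 (3 probes from -2.72 to -0.60), and Kit was at -1.67 with 10 probes from -1.91 to -1.47. Zbtb46, the transcription factor used to mark conventional DC, was at -0.94, short of 2-fold, with 3 probes from -1.42 to -0.35.

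Genes of both conventional types were among those lower in lung Mϕ. Of 25 type 1 genes 12 were lower and 1 higher (Ly75). Itgae, which encodes CD103, was at -2.41 and stood at 3.07 over PBMo in lung DC. Cadm1 was at -1.92 (3 probes from -2.84 to -0.65), Irf8 at -1.71 and Batf3 at -1.35, whereas Xcr1 was at -0.90 and Tlr3 at -0.36. Of 24 type 2 and monocyte-derived DC genes 14 were lower and 2 higher (Ffar2, 1.30, and Sirpa). Irf4 was at -1.25 and Ccl17, a chemokine for CCR4, at -1.77, while Klf4 was at -0.40. Mgl2 was above PBMo in both populations, at 4.60 in lung DC and 2.71 in lung Mϕ.

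Of 18 plasmacytoid DC genes 15 were lower and 0 higher, with a median of -1.63. Siglech was at -1.81 and Ccr9 at -2.65, and both were near PBMo in lung Mϕ (-0.16 and -0.15) and above it in lung DC (1.65 and 2.50). Not all members were clearly above PBMo in lung DC, where Tcf4 was at 0.25, Bst2 at -0.34 and Irf7 at -1.25. The main ratio of Tcf4 was -1.19, with 3 probes from -1.68 to -0.28. Ly6d (-3.57) is also expressed by B cells, and Irf7 and Bst2 (-1.45) also answer to interferon. In lung DC, medians over PBMo were 1.01 for plasmacytoid DC, 0.97 for type 1, 0.50 for type 2 and 0.93 for NK cell genes. By these medians, the lists were higher together in the low autofluorescent sort, which does not hold for every member.

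Of 39 genes of DC maturation and lymph node migration 26 were lower and 0 higher, with a median of -1.71. Ccr7, the receptor that guides DC to the lymph node, was at -3.91 (15-fold higher in lung DC) and stood at 4.35 over PBMo in lung DC against 0.45 in lung Mϕ. Fscn1, the actin bundler of mature DC, was at -2.25 and Cd83 at -2.15. Zmynd15, a zinc finger protein, was at -3.49 and Il4i1, an amino acid oxidase, at -2.55. The costimulatory ligands differed among themselves. Cd40 was at -2.17 over 10 probes and Cd86 at -1.86, whereas Cd80 (-0.37), Cd274 (0.20) and Pdcd1lg2 (-0.05) were within 2-fold. Of 28 costimulatory and coinhibitory genes 8 were lower and 0 higher. Of 43 genes of actin and migration 3 were higher and 8 lower, with Marcks, an actin-binding substrate of protein kinase C, at -3.35.

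Of 26 transcription factors of DC 15 were lower and 0 higher. Ahr, the aryl hydrocarbon receptor, was at -2.49 with 10 probes from -2.60 to -2.41, Bcl6 was at -2.78, and Spib, a factor of plasmacytoid DC and B cells, was at -2.62. Id2, which conventional DC require, was at -1.64. Of 26 transcription factors of macrophages 4 were higher and 4 lower. Egr2 was at 2.06 with 10 probes from 2.03 to 2.11, and Tfec, a relative of Mitf, was at 2.03. The lineage factors Cebpa (0.93), Cebpb (0.74), Spi1 (0.36) and Maf (-0.76, with 4 probes from -2.20 to -0.15) were all within 2-fold, while Irf5 (-2.07) and Spic (-2.26) were lower. On these 2 lists, more factors of DC than of macrophages were thus past 2-fold. The DC list reached down to Stat4 (-3.06), and its median over PBMo was 0.27 in lung DC and -0.78 in lung Mϕ.

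Presentation on MHC class II was lower in lung Mϕ at the chains and their activator. Of 22 genes 8 were lower and 2 higher. H2-Ab1, the beta chain of I-A, was at -2.48 with 13 probes from -2.64 to -2.21, and H2-Eb1, the beta chain of I-E, was at -2.43. H2-Oa, a chain of the modulator H2-O, was at -1.99 and H2-DMb1, a chain of the peptide editor H2-M, at -1.38. H2-DMa, the partner chain of H2-DMb1, was at -0.13, and its ratio over PBMo was 0.88 in lung DC and 0.75 in lung Mϕ. Ciita, the activator that MHC class II genes require, was at -2.66. The subunits of the factors that bind the promoters differed little: Rfx5 was at 0.07, Rfxank at -0.03, Nfya at -0.26 and Nfyb at -0.55. The 2 genes on the other side were the proteases Ctss (1.43) and Ctsl (1.79), which process the invariant chain. Relative to PBMo, H2-Ab1 was at 2.28 in lung DC and at -0.20 in lung Mϕ.

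Promoters of 3 class II genes more than 2-fold lower in lung Mϕ are shown with the Y box, the binding letters of NF-Y, in capitals. The letters ATTGG were searched on both strands (reverse CCAAT) in the RefSeq windows of GRCm38.p6, from 250 bases before to 50 bases after the annotated start. The stretches below are the 150 bases before the start, 5′ to 3′ on the strand of the gene: chr17:34287824-34287973 (minus strand), chr17:34305717-34305866 (plus) and chr17:34092229-34092378 (plus).
H2-Aa: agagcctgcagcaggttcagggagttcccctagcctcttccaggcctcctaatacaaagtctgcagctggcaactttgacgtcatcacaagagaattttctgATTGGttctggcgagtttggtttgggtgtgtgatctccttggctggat
H2-Eb1: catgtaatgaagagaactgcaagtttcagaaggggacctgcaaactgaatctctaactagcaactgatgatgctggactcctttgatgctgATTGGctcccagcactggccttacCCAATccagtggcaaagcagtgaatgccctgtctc
H2-Oa: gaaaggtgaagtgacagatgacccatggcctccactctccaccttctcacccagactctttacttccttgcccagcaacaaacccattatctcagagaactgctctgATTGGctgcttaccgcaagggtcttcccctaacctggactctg
In each line ATTGG began 48, 59 and 43 bases before the start, and H2-Eb1 held CCAAT a further time, 35 bases before it. Of the class II list, 18 genes had a window and 13 held the letters (72.2%). Among the 5 genes with a window that were lower, all 5 held them, and among the 11 within 2-fold 8 did. Of the 18 genes of MHC class I presentation with a window, 14 held the letters too (77.8%). The letters are common, since 41.1% of the 27025 genes with a window held them, and they did so in 42.1% of the genes higher and 41.1% of those lower in lung Mϕ. A match is no evidence of binding.

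Of 22 genes of MHC class I presentation 10 were lower and 0 higher, with a median of -0.92 and a lowest ratio of -1.69. The class II list had a median of -0.28 and a lowest ratio of -2.74. H2-K1 had 14 probes from -1.57 to -0.94, and B2m, the light chain, was at -1.03 with 12 probes from -1.08 to -0.95. The immunoproteasome subunits Psmb9 (-1.38) and Psmb8 (-1.04) were lower, as was Nlrc5, the activator of class I genes, at -1.08. The loading factors Tapbp (-0.45) and Tap2 (-0.62) were within 2-fold. H2 class I genes are near copies of each other, so probes of H2-K1, H2-D1 (-1.08) and H2-Q7 (-1.17) may share signal. Unlike the class II chains named above, the class I genes were close to PBMo in lung DC (list median -0.08) and below it in lung Mϕ (list median -0.99).

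Genes that respond to interferon were lower in lung Mϕ. Of 36 measured 23 were lower and 0 higher, with a median of -1.28. Ifitm3, which blocks entry of enveloped viruses, was at -3.10 (8.59-fold higher in lung DC), and Rtp4, a chaperone of receptor transport, was at -2.91. Irf7, the factor that amplifies type I interferon, was at -2.87 and Usp18, which removes ISG15 and restrains the receptor, was at -2.40. The GTPases Mx2 and Mx1 were at -2.15 and -1.63. Ifit1 (-0.83) was within 2-fold.

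Against PBMo these genes were low in both lung populations, and lower in lung Mϕ. The list median over PBMo was -2.28 in lung Mϕ, compared with -0.98 in lung DC. Ifitm3 stood at -4.46 and -1.36, Irf7 at -4.12 and -1.25, and Rtp4 at -5.16 and -2.25. The order from lung Mϕ to lung DC to PBMo was thus the same in these 3 genes. Cxcl10, an interferon-induced chemokine, was the exception with the highest ratio, at 0.59, and was above PBMo in both (2.08 and 1.49).

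The promoters of 3 of these genes are shown with the core of the interferon-stimulated response element in capitals. GAAA, any 2 bases and GAAA again were searched on both strands (reverse TTTC, any 2 bases, TTTC) in the same windows. The lines give the 150 bases before the start of Ifit3 (chr19:34583379-34583528, plus strand), Ifitm2 (chr7:140955962-140956111, minus) and Isg15 (chr4:156200819-156200968, minus), whose ratios were -1.92, -2.11 and -1.13.
Ifit3: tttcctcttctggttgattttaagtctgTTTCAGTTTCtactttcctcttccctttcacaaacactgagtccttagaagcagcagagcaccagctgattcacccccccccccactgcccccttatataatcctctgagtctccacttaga
Ifitm2: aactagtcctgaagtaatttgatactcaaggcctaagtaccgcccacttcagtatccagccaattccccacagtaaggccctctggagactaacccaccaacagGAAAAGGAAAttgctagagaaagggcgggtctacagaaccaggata
Isg15: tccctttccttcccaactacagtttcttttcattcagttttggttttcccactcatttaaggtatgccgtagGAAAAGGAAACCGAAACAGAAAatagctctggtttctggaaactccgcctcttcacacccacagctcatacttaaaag
The match began 122 bases before the start in Ifit3 and 46 bases before it in Ifitm2. In Isg15 there were 3 overlapping matches, which began 78, 72 and 66 bases before the start. The element was held by 18 of the 26 list members with a window (69.2%), compared with 3.99% of all genes with a window. It was held by 10 of the 16 members with a window that were lower and by 8 of the 10 within 2-fold. Whether the ratio of a member follows from these letters was not tested. Over all measured genes, 8.62% of the 661 lower genes with a window held it and 2.57% of the 428 higher ones. The motif and these 3 genes were chosen after the values had been seen.

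**Figure D4:**
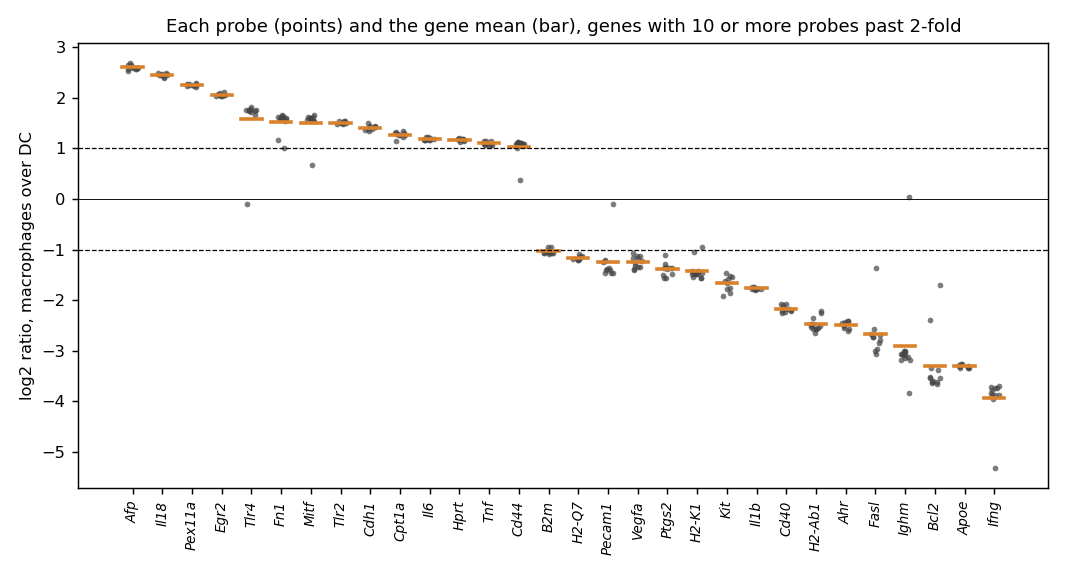
Log2 ratio of lung Mϕ over lung DC for each probe (points) and the gene mean (bar) of 30 named genes with 10 or more probes past 2-fold. In 20 of these genes all probes lay within 0.5 of each other, as in Apoe (-3.35 to -3.27), and in 6 they lay more than 1 apart, as in Ighm (-3.84 to 0.03).

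Chemokines marked each population. Of 32 CC and CXC chemokines 4 were higher and 9 lower. The neutrophil attractants Cxcl1 (2.0), Cxcl2 (1.79) and Cxcl3 (2.14) were higher, together with Ccl6. Cxcl1 was far above PBMo in both populations, at 6.01 in lung Mϕ and 4.00 in lung DC. Ccl4, a CC chemokine, was at -3.28, and Ccl5 was at -4.79 with 2 probes at -5.42 and -4.17. Xcl1, the ligand of XCR1 made by NK cells and T cells, was at -2.87. Ccl22 (-1.21) and Ccl12 (-1.77) were also lower, while Ccl3 (-0.70) was within 2-fold. Ccl5 and Xcl1 are abundant in cytotoxic lymphocytes, whose markers were lower too.

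Of 23 chemokine receptors 7 were lower and 0 higher. Cxcr3, a receptor of T cells, NK cells and plasmacytoid DC, was at -3.47. Ccr2 was at -2.02 (2 probes at -2.60 and -1.45) and Cx3cr1 at -1.83 (2 probes at -2.78 and -0.89). Both were below PBMo in lung DC (-2.05 and -0.67) and further below in lung Mϕ (-4.08 and -2.50). The monocyte receptors were thus lowest in lung Mϕ. Of 24 integrin chains 6 were lower and 0 higher. Itgax, which encodes the CD11c on which both populations were selected, was at 0.24. Itgb7, the partner of CD103, was at -3.37, Itgam, which encodes CD11b, was at -1.79, and Itga4 was at -1.46 with 6 probes from -2.35 to -0.06. Of 37 metallopeptidases and inhibitors 2 were higher and 8 lower. The collagenase Mmp13 was at -3.07 and the sheddase Adam8 at -3.19, whereas Mmp19 was at 1.60.

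Cytokines of the interleukin-1 family were divided. Il18 was at 2.46 with 10 probes from 2.40 to 2.50, and Il1a was at 2.13. Il1b was lower, and its 10 probes lay between -1.79 and -1.73. All 3 were above PBMo in both populations, with Il1b at 3.89 in lung DC and 2.13 in lung Mϕ. The receptor antagonist Il1rn was at 1.5. Il6 was at 1.18 with 10 probes from 1.16 to 1.22, and Tnf at 1.10 with 10 probes from 1.05 to 1.15. Ebi3, a chain of IL-27 and IL-35, was at -2.86. Of 30 interleukin genes 6 were higher and 2 lower.

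Receptors of growth and survival signals were lower or alike. Of 27 receptors for colony-stimulating factors and common gamma cytokines 8 were lower and 0 higher. Il2rb, shared by IL-2 and IL-15, was at -4.56 and is also on the NK cell list, and Il21r was at -2.15. Of 32 genes of the TNF superfamily 2 were higher and 8 lower: Tnfsf13, which encodes APRIL, was at 1.23, and Ltb, which encodes lymphotoxin beta, was at -2.77. Of 31 genes of TGF-beta and tissue growth factors 4 were higher and 5 lower. Inhba, the chain of activin A, was at 1.31, and the vascular factors Vegfc and Vegfa were at -3.31 and -1.25. Vegfa had 12 probes from -1.41 to -1.07. Igf1 (0.59), Tgfb1 (0.07) and Tgfbr2 (0.51) were within 2-fold.

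Of 21 NF-kB genes 8 were lower, 0 higher and 20 below 0. Relb, the subunit of mature DC, was at -1.71, Map3k14, the kinase of the noncanonical pathway, at -2.23 and Nfkb2 at -1.06. Rela (-0.21) and Nfkbia (-0.09) of the canonical pathway were within 2-fold, but the inhibitor Nfkbie was lower (-1.93). The lowest gene of the list was Traf1 (-3.78). Of 17 genes of the Bcl2 family 4 were lower and 1 higher. Bcl2 was at -3.30, although its 12 probes ran from -3.66 to -1.70, and Pmaip1, a promoter of cell death, was at -2.96. Mcl1 (0.20) and Bcl2l1 (0.15) were within 2-fold.

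Cell cycle genes did not separate the populations by 2-fold. Of 36 only Bub1b passed it (1.21), and Mki67 was at -0.15, with 2.39 over PBMo in lung Mϕ and 2.54 in lung DC. The list medians over PBMo were 1.40 and 1.00. Of 40 immediate early and heat shock genes, which tissue digestion can induce, 1 was higher (Egr2) and 7 lower. Hspa1a, an inducible HSP70, was at -2.23 and stood at 4.18 over PBMo in lung DC and at 1.94 in lung Mϕ. Fos (0.31), Jun (0.32) and Egr1 (0.60) were within 2-fold. The part of tissue preparation in the ratios was not tested.

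Genes of circulating monocytes were lower in lung Mϕ than in lung DC. Of 29 genes 20 were lower and 4 higher, with list medians over PBMo of -3.03 for lung Mϕ and -1.44 for lung DC. Ly6c2 was at -6.32 over PBMo in lung Mϕ and at -2.58 in lung DC, and Treml4 was at -3.51 and -0.28. F13a1, which encodes a chain of factor XIII, was low in both (-6.33 and -5.70), so its main ratio was only -0.62. The 4 genes on the other side were Chil3, Mgst1, Lyz2 and Fn1, which encodes fibronectin. Fn1 was at 1.52 with 12 probes from 1.01 to 1.67, and both lung populations were below PBMo (-1.04 in lung Mϕ and -2.56 in lung DC).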

How the data were processed

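The 2-colour Agilent oligonucleotide arrays compared RNA pools of lung Mϕ, lung DC and PBMo. The deposited log2 ratios are, per the authors' methods, values corrected for local background, LOESS-normalized within arrays and fitted as contrasts of a limma model (version not given in the sources used here) over all hybridizations, 1 value per spot for each of 3 comparisons. They were used as deposited. Amplification of the RNA before labelling can change the size of a ratio. Signal over background was not analysed here.

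Row numbers did not follow the annotation's feature numbers. Of 32 layouts, that in which probes of the same transcript had the most similar ratios was kept. Its share of variance between transcripts was 0.907, the next layout reached 0.413, and on 2949 transcripts left out of the choice the share was 0.919. Of 33709 listed probes 33653 had 1 gene symbol and gave 19087 genes, 10744 of them with 1 probe. Symbols were looked up by gene number for 33517 probes.

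Since no replicate values were used, no test was run. Genes past a log2 ratio of 1 or -1 were counted, over all genes and in 56 lists, of whose 1348 genes 1235 were measured. The members and lists were chosen with earlier results of these data known. Named genes are the 15 highest and 15 lowest genes whose probes share a sign, the core genes of the lists, the MHC class II chains, Chil3, Chil4, and per list up to 6 members past 2-fold in each direction and those on the side opposite to most. Cd4, Cxcl10, Dst, Ehhadh, H2-D1, H2-DMb1, Ifitm2, Il4i1, Nfya, Nfyb, Nlrc5, Retnla, Rfx5 and Rfxank were named after their values had been seen. So were Gimap6, Maoa, Gpat3, Alas1, Fpr2, Ptpn22 and Aldh1a2 among the other observations. Layout and counts were tested on simulated data. Alternatives were other summaries of probes, centring, thresholds of 1.5-fold and 4-fold, and counts without some lists. RefSeq promoter windows were found for 15306 genes. Protein sequences were not analysed here. Python 3.11.15, numpy 2.4.6, pandas 2.3.3, Biopython 1.88 and matplotlib 3.10.9 were used.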

Additional observations from a re-analysis of the deposited data

How the results depend on the processing

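Against 523 genes higher and 863 lower in lung Mϕ, a threshold of 1.5-fold gave 1364 and 1621, a threshold of 4-fold gave 66 and 253, each probe counted on its own gave 1073 and 1635, and genes with more than 1 probe alone gave 195 and 312, by construction of these counts. The counts stayed within 1.5 times for the median of the probes (540 and 871), the probe with the largest ratio (707 and 1151), every probe past the threshold (440 and 707), and centring on the median (519 and 867). They also did so without the lists of other cell types (512 and 787) and without the immediate early list (522 and 856), both chosen after seeing the data. More genes were lower than higher in each of these settings. Of the 112 list counts, 0 moved by more than 1.5 times under centring or the median of the probes, 5 with the largest probe, 10 with every probe, 43 with members on 1 list only, 34 at 1.5-fold and 73 at 4-fold. Of 507 genes past 2-fold with more than 1 probe, 14 had probes of both signs and 65 had probes more than 2 log2 units apart. No paired analysis was possible because the deposited columns hold no replicates. The order of the spots rests on the values themselves, the spread between pools is unknown, and a ratio near 0 can stand for a transcript not detected in either population.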

Other observations

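The families below were noticed in the values and are given as descriptions with no test. The Gimap genes, small GTPases of lymphocytes and other blood cells, were lower in lung Mϕ in 6 of 7 cases, with a median of -2.15 and the lowest ratio in Gimap6 (-3.49). Their median over PBMo was 0.92 in lung DC and -1.15 in lung Mϕ. Of 12 measured Klra genes, which encode Ly49 receptors of NK cells and are near copies of each other, 10 were lower. All 8 interferon regulatory factor genes measured were below 0, with 5 lower by more than 2-fold and a median of -1.14. On the other side, 3 of 7 Gstm genes, the mu class glutathione transferases, were higher, with a median of 0.85. Of 9 Fabp genes 3 were higher, and the median of this family was 0.10.

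Of the genes past 2-fold, 956 stand on none of the lists. Among them Slc6a4, the serotonin transporter, was at 2.55 and Maoa, the oxidase that degrades serotonin, at 2.02. Gpat3, an acyltransferase of triglyceride synthesis, was at 2.41 with 2 probes, and Alas1, the first enzyme of heme synthesis, at 2.19. Fpr2, a receptor for formyl peptides, was at 2.17. On the side of lung DC, Ptpn22, a phosphatase of lymphocyte signalling, was at -3.75, and Aldh1a2, which makes retinoic acid, was at -2.48 with 3.32 over PBMo in lung DC and 0.84 in lung Mϕ. Of the 11511 spots that the annotation does not list, 115 were more than 2-fold higher and 581 lower (6.05% together), down to -4.51. Their genes were not named.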
